A study of Mus musculus with 6 samples.

Results

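Two-colour arrays compared the ventral prostate of the fl26 mouse line, which carries a transgene for full-length human 15-lipoxygenase 2 (15-LOX2), with that of young wild type mice. The comparison consists of the 2 arrays whose titles give fl26 against wild type, out of 6 arrays in the series. On each, RNA of fl26 mice aged 2.5 months was labelled with the red dye (Cy5) and RNA of wild type mice of the same age with the green dye (Cy3). All mice were of the FVB strain. The other 4 arrays carried, in red, RNA of the svb9 line (splice variant 15-LOX2sv-b, 2.5 months) or of old wild type mice (15 months), with 2 arrays each and young wild type RNA always in green. Each extract pooled several animals. The sample labels give 3 mice per pool and the design text gives 6, and this was not settled here. The replicate arrays are described as independent sets of samples, so p-values of the main fit measure the spread between pools. fl26 is a single transgenic line, described in the published account of these mice as driven by an androgen-responsive probasin promoter, which acts in prostate epithelium.

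15-LOX2 is a lipoxygenase that adds oxygen to carbon 15 of arachidonic acid and gives 15-HETE, a lipid product that can act on nuclear receptors of the PPAR family. In the human prostate it is made by luminal epithelial cells and is commonly lost in prostate cancer, and it has been linked to slower growth and to cellular senescence. The ventral lobe of the mouse prostate is a secretory epithelium of luminal cells resting on sparse basal cells. A fibromuscular stroma surrounds it, and its bulk RNA is dominated by a few secreted proteins under androgen control.

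Values below are log2 ratios of fl26 over young wild type after background correction and loess normalization within each array, so a value of 1 is a 2-fold higher level. Because fl26 was always red, an effect of the dye and one of the line cannot be told apart in this comparison. It cancels in the difference between fl26 and svb9, since both were red. Array 1 was the stronger of the pair. Its red channel was well above background for 27150 of 41174 probes and its green channel for 29115, against 17620 and 27002 on array 2. Median net intensity (spot minus background, in scanner units) was 65.5 in red and 44.6 in green on array 1, and 17.2 and 26.0 on array 2. In bulk tissue, fewer cells of a type and less RNA per cell cannot be told apart.

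The tissue label was checked against secreted proteins of the ventral lobe. Sbp and Spink1 were saturated in both colours on both arrays, with net red intensities of 65128 and 65124 on array 1, and Defb50, Msmb and Pbsn were saturated in red on 1 array. Saturated spots carry no usable ratio. Of 17 products of the other lobes and the seminal vesicle, 8 were tested and 5 were well above background in red on both arrays. Among these, Wfdc3 had net red intensities of 18245 and 3428 with log2 ratios of -0.57 and -1.22 (adjusted p = 0.33, limma; 0.012 with the replicate number as a block), whereas Svs5, a seminal vesicle protein, was not well above background in red on either array. Among epithelial keratins, Krt8 had a net red intensity of 21359 on array 1 and Krt5, a basal keratin, 3526. The transgene is human, and no probe is known here to read it. The mouse Alox15b probe did not enter the test, and mouse Alox15 lay at -0.01 and -0.00. The Alox15 probe was dim, with net red intensities of 39.4 and 11.6 and red well above background on 1 array, so its ratios say little.

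Few genes differed from wild type beyond the spread of the arrays. In the limma test over all genes, 14 of 27858 probes (0.0503%) passed at a Benjamini-Hochberg adjusted p of 0.05. The higher ones numbered 6 (0.0215%) and the lower ones 8 (0.0287%), while 2832 probes (10.2%) had an unadjusted p under 0.05. The 14 probes comprise 11 probes of 10 named genes and 3 of unnamed transcripts. A change of 2-fold or more on each array was seen for 20 probes upward (0.0721% of the 27737 that had both values) and for 15 downward (0.0541%). This balance depended on the scaling, with 39 upward and 6 downward after median centring and 43 and 82 with the scanner software's own log ratios. Agreement between the arrays was weak over all probes and strong at the extremes. Pearson's r across 27737 probes, which are not independent replicates, was 0.26, and 53.4% of probes had the same sign on both arrays. Among the 111 probes at least 2-fold on array 1, 77.5% had the same sign on array 2, and among the 156 at least 2-fold on array 2, 83.3% had the same sign on array 1. When a single array was dropped from the fit, 1 call remained without fl26 array 2 and 0 remained without any other array. With the replicate number as a block in the fit 999 probes passed, 518 higher (1.86%) and 481 lower (1.73%). With the day of the image analysis run as a term 121 passed, 61 higher (0.219%) and 60 lower (0.215%). All 14 probes were among both sets. So were many genes described below that did not pass otherwise: of the 18 uncalled genes among the 12 highest and 12 lowest on both arrays, 18 passed with the block and 14 with the run day. The block takes the difference that same-numbered arrays share out of the spread, so blocked p-values do not measure the whole spread between pools. The run day term does the same for arrays run on the same day. The block also called probes whose arrays had opposite signs, such as the ribosomal gene Rplp2 (-1.60 and 0.28). In what follows, "passed" refers to the fit without the block, and the blocked p is given where it changes the call.

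**Figure D1:**
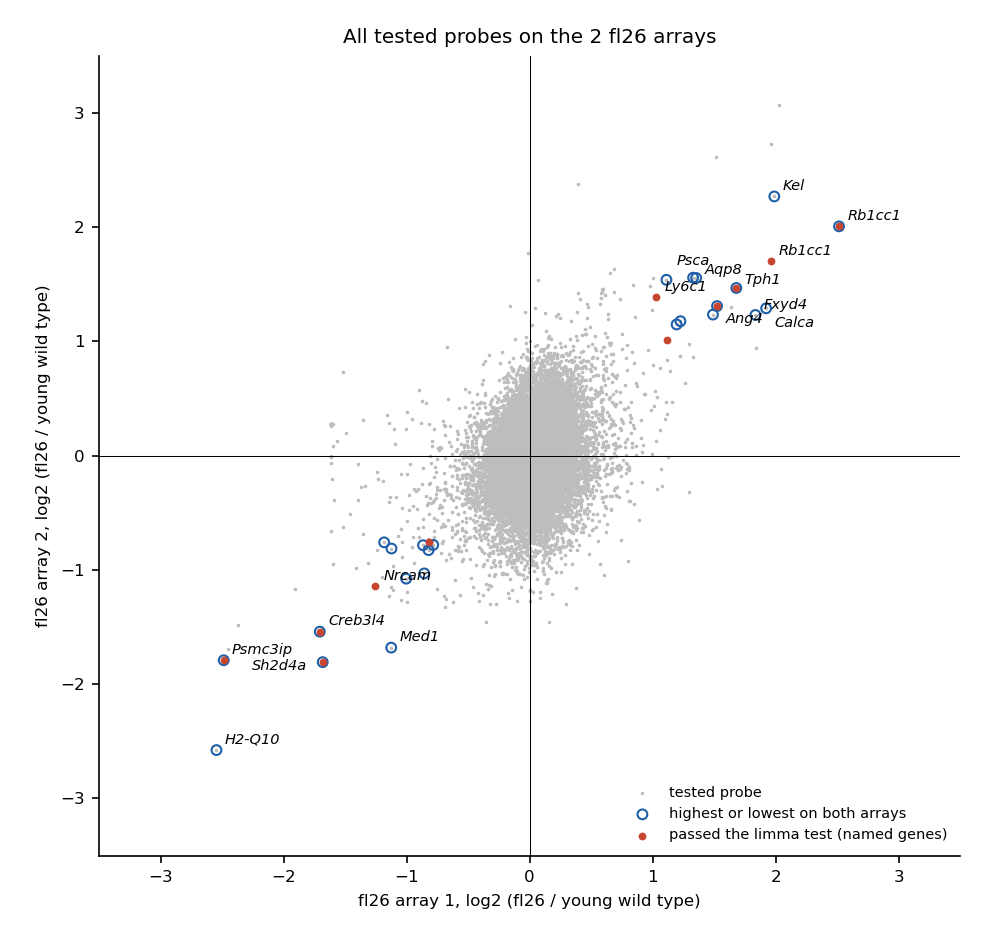
Log2 ratio of fl26 over young wild type on array 1 (horizontal) and array 2 (vertical), 1 grey point per tested probe. Blue rings mark the 12 highest and 12 lowest named genes by the smaller of the 2 arrays, and red points the named genes that passed the limma test; the grey mass around 0 has r = 0.26, and the ringed genes lie in the corners where both arrays have the same sign.

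Rb1cc1 had the largest mean increase among the genes that passed, 4.79-fold. It encodes a scaffold of the ULK1 kinase complex, which starts autophagy. Its strongest probe had net intensities of 3837 in red and 224 in green on array 1 and 1224 and 329 on array 2, giving log2 ratios of 2.51 and 2.01. Red exceeded green by a wide margin on both. A second probe, at 1.96 and 1.71, also passed (adjusted p = 0.019 for each, limma). The other 3 tested probes of the gene were much nearer to 0, at 0.70 and 0.11, at 0.26 and 0.35, and at 0.45 and 0.59, and none of these passed. The probe at 0.26 and 0.35 was dim, with net red intensities of 109 and 46.1, and the offset of the background correction draws dim ratios toward 0. In the scanner software's own log ratios these 3 probes lay between 0.20 and 0.91 and the high pair between 2.01 and 2.72. A sixth probe was not above background in either colour. The probes of Rb1cc1 therefore fell into a pair near 2 and a group between 0.11 and 0.70, and which exons each reads was not determined, since the array files hold no probe sequences. The same 2 high probes lay between -0.21 and 0.23 on the svb9 and old wild type arrays.

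The rest of the autophagy genes did not follow Rb1cc1. Of 36 tested autophagy genes, 1 rose and 0 fell, where 0.0209% and 0.0349% of all genes did. The list's median was 0.02 on array 1 and 0.00 on array 2, beside 0.01 and -0.01 over all 14344 genes with 1 probe each. Partners in the ULK1 complex lay on both sides of 0. Atg13 had 0.11 and -0.10, Ulk1 0.12 and -0.14, and Atg101 -0.04 and 0.62. The lipidated membrane marker Map1lc3b had -0.00 and 0.12, and the cargo receptor Sqstm1 had 0.09 and -0.03.

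Tph1 rose, and a few other genes of serotonin handling and neuroendocrine cells lay well above 0. Tph1 encodes the enzyme for the first step of serotonin synthesis outside the brain. Its net intensities were 3852 in red and 419 in green on array 1 and 651 and 251 on array 2, with log2 ratios of 1.68 and 1.47 (adjusted p = 0.024, limma). Its second probe had 1.14 and 0.74 and did not pass (adjusted p = 0.14, 0.012 with the block). That probe was dim, with net green intensities of 53.7 and 21.8. In the scanner software's own log ratios it had 1.79 and 1.95, beside 1.76 and 1.67 for the first probe. Calca, which encodes calcitonin and the peptide CGRP, had 1.92 and 1.29 on its brighter probe (adjusted p = 0.16, 0.003 with the block) but 0.05 and -0.05 on the other. Slc18a1, a transporter that loads serotonin into vesicles, had 1.04 and 0.51 (adjusted p = 0.21, 0.021 with the block), whereas its relative Slc18a2, the lowest of the list, had 0.06 and -0.20. Aanat, which acetylates serotonin and was picked out after its values were seen, had 1.01 and 1.55 (adjusted p = 0.26, 0.006 with the block). Its net red intensities of 39769 and 15633 were far above those of Tph1, and it had no value on the old wild type arrays. On svb9 arrays Aanat lay at 0.15 and 1.03, the brighter Calca probe at 1.10 and 0.25 and the first Tph1 probe at 0.42 and 0.11. High values of Aanat and Calca on 1 array were thus not particular to fl26. Classical granule markers were near 0: Chga had 0.09 on both arrays and Scg3 0.17 and 0.03. Of 18 tested genes of serotonin handling and neuroendocrine cells, 1 rose, where 0.0209% of all genes did. Above 0 on both arrays were 10, where 27.9% of all genes were. With median centring 5 were above the median of all probes on both arrays, and the list's median on array 1 turned to -0.09. Red signal was well above background on both arrays for 9 of the 18.

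The angiogenins formed a group of related genes with high values. These are small secreted ribonucleases of the RNase A family. Ang4, which has antimicrobial activity in the gut, had net red intensities of 765 and 244 against 89.5 and 88.3 in green. Its log2 ratios of 1.52 and 1.31 passed the test (adjusted p = 0.033, limma), and its second probe gave 1.64 and 1.30 (adjusted p = 0.085, 0.010 with the block). Ang had 1.49 and 1.24 on its first probe, against 0.16 and 0.14 on its second. Ang2 had 1.19 and 1.15, and Ang5 had 1.84 and 0.94, and neither passed (adjusted p = 0.16 and 0.21). With the block Ang (0.014), Ang2 (0.012) and Ang5 (0.018) passed. The 4 genes are close paralogs, so which of them each probe read is uncertain. Other members of the family were nearer to 0, with Rnase4 at 0.27 and 0.22, Rnase6 at -0.12 and -0.04 and Rnase2a at -0.17 and 0.04. On svb9 arrays the first probe of Ang4 lay at -0.40 and -0.19 and that of Ang at -0.42 and -0.14, on the other side of 0. On old wild type arrays Ang4 lay at 0.89 and 1.23 and Ang at 1.69 and 0.997, on the same side as fl26.

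Ang, Ang2 and Ang4 lie on chromosome 14, in the order given by the RefSeq annotation of GRCm38.p6, which was used for gene order alone. The stretch from Rnase10 to Ear6 holds 23 protein-coding genes, of which 11 were tested. Only these 3 angiogenins exceeded 0.4 on both arrays there. The tested genes that flank them in this order, which are Rnase9, Rnase4, Rnase1, Rnase2a, Vmn2r89 and Ear6, did not. The choice of 0.4 and of the stretch was made after the values were seen.

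A second family with high values was Ly6, whose members encode small proteins anchored to the cell surface by a lipid. Ly6c1, a marker of monocytes and small vessels, had 1.03 and 1.39 on one probe, which passed (adjusted p = 0.033, limma), and 1.26 and 0.64 on the other. Ly6a, the stem cell antigen Sca-1, had 1.22 and 0.87 (adjusted p = 0.22), and Ly6f had 1.16 and 0.47. Psca, prostate stem cell antigen, had 1.33 and 1.56 (adjusted p = 0.30), but also 1.55 on old wild type array 2. With the block Ly6a (0.033), Psca (0.044) and the second Ly6c1 probe (0.0495) passed. All lie on chromosome 15, where the stretch from Psca to Ly6f holds 23 protein-coding genes, 11 of them tested, and these 4 genes exceeded 0.4 on both arrays. Members between them did not: Ly6d had -0.06 and 0.18, Ly6e -0.15 and 0.20, Ly6k 0.20 and 0.08 and Ly6i 0.23 and -0.11. Ly6a, Ly6c1 and Ly6f are similar in sequence and may share probes. In svb9, the called Ly6c1 probe had 0.51 and 0.50, and its difference between the lines was 0.70 ± 0.14 (limma standard error, 2 arrays each, adjusted p = 0.99995).

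Several genes of epithelial transport and signalling stood high on both arrays and passed with the replicate block but not without it. Kel, which encodes a surface peptidase that activates an endothelin, had net red intensities of 4212 and 1236 against 366 and 269 in green, and log2 ratios of 1.99 and 2.27 (adjusted p = 0.085, limma; 0.003 with the block). It was also high on 1 old wild type array, at 0.06 and 1.06. Aqp8, a water channel, had 1.35 and 1.56 (adjusted p = 0.16, 0.004 with the block). Fxyd4, a regulator of the sodium pump, had 1.83 and 1.23 (adjusted p = 0.27, 0.046 with the block). On old wild type arrays Fxyd4 had 0.01 and 1.12 and Aqp8 0.02 and 0.68. On svb9 arrays Fxyd4 had 0.69 and -0.26 and Aqp8 -0.60 and 0.09. Red was the stronger colour for Kel, Aqp8 and Fxyd4 on both fl26 arrays. Cwc22, a splicing factor, had 1.23 and 1.18 (adjusted p = 0.059, 0.005 with the block). Plxna1, a semaphorin receptor, had 1.11 and 1.54 (adjusted p = 0.17, 0.003 with the block), but its second probe had -0.04 and -0.10. It was also high on svb9 array 2 (1.37) and on the old wild type arrays (1.62 and 2.03), so it did not set fl26 apart. Tmem94, a membrane protein gene, rose in either fit, with 1.11 and 1.01 and an adjusted p of 0.033.

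Among the genes that were lower, Psmc3ip, also called Hop2, had the most negative ratio of those that passed. Its product works with Mnd1 in strand exchange during meiotic recombination. Net intensities were 162 in red and 474 in green on array 1 and 85.1 and 499 on array 2, with log2 ratios of -2.49 and -1.79 (adjusted p = 0.032, limma). Green exceeded red on both arrays. A second probe had -1.41 and -0.99 (adjusted p = 0.091, 0.013 with the block). Among 21 tested genes of homologous recombination, Psmc3ip fell and 0 rose, where 0.0349% and 0.0209% of all genes did. Below 0 on both arrays were 10, where 26.5% of all genes were, and above 0 were 3, where 27.9% were. The Psmc3ip partner Mnd1 had 0.02 and -0.24. Hormad1, a protein of the meiotic chromosome axis, was the next lowest of the list, at -0.70 and -0.62 (adjusted p = 0.12, 0.017 with the block). On the svb9 arrays the first Psmc3ip probe lay at 0.24 and 0.02, and on old wild type arrays at 0.03 and -0.20.

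Creb3l4 and Sh2d4a were both bright enough to be measured in red on both arrays and both fell. Creb3l4 is a transcription factor held in the endoplasmic reticulum membrane and made in prostate epithelium. It had net intensities of 806 in red and 1023 in green on array 1 and 267 and 1049 on array 2, and log2 ratios of -1.71 and -1.54 (adjusted p = 0.032, limma). Sh2d4a, whose product is an adaptor protein with an SH2 domain, had 145 in red and 253 in green on array 1 and 58.6 and 394 on array 2, and log2 ratios of -1.68 and -1.81 (adjusted p = 0.024). On svb9 and old wild type arrays Creb3l4 lay between -0.77 and -0.22 and Sh2d4a between -0.58 and -0.15. All of these values were negative and smaller in size than those of fl26. Ubash3b, a phosphatase that dampens receptor signalling, fell with -0.82 and -0.75 (adjusted p = 0.049). Nrcam, a neuronal cell adhesion gene, fell with -1.26 and -1.14 (adjusted p = 0.033), but its red signal was well above background on array 1 alone.

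Other genes of the unfolded protein response did not move with Creb3l4. Of 34 tested genes of that list, 1 fell and 0 rose, with a median of 0.07 on array 1 and -0.07 on array 2. The close relatives Creb3 (-0.02 and -0.18), Creb3l1 (-0.32 and -0.13) and Creb3l2 (0.22 and -0.45) did not pass. Of the list, 9 were above 0 on both arrays and 7 below. Edem1, which helps misfolded proteins leave the endoplasmic reticulum, was the highest, at 0.43 and 0.69 (adjusted p = 0.37, 0.0495 with the block), and the chaperone Hspa5 had 0.34 and 0.43.

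H2-Q10 had the lowest mean ratio of any named gene, with disagreement among its probes. It encodes a secreted MHC class I molecule. Its first probe had net intensities of 701 in red and 1607 in green on array 1 and 238 and 2010 on array 2, with log2 ratios of -2.55 and -2.58 (adjusted p = 0.10, limma; 0.003 with the block), and a second probe had -2.45 and -1.69. The other 3 probes had -0.33 and 0.16, -0.01 and 0.02, and -0.35 and -0.29. MHC class I genes are near-identical copies, so each probe can read more than one of them. On the other red samples the first probe varied, with 0.23 and -0.67 in svb9 and -0.27 and -1.36 in old wild type. With the run day as a term the difference between fl26 and svb9 passed for this probe and for the second, and it did not without it (adjusted p = 0.99 for the first). Of 18 tested MHC class I genes, 3 were above 0 on both arrays and 6 below, with medians of -0.08 and -0.14, and the classical genes H2-K1 and H2-D1 had 0.22 and 0.89 and -0.02 and 0.33. On chromosome 17, 8 of 10 genes from H2-D1 to Cchcr1 were tested. H2-Q10, Tcf19 (-1.18 and -0.76) and Cchcr1 (-0.63 and -0.62) were below -0.4 on both arrays, and 1 probe of H2-Q1 (0.86 and 1.22) was above 0.4. The genes next to H2-Q10 on either side were H2-Q7, at -0.12 and 0.54, and Pou5f1, at -0.21 and 0.30. H2-Q2, which lies further from it than Tcf19 and Cchcr1, had 0.35 and 0.70.

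The remaining genes with the lowest values on both arrays were of mixed function, and most rested on 1 probe of several. Gne, the key enzyme of sialic acid synthesis, was low on all 3 of its probes, at -0.78 and -0.78, -0.44 and -0.72, and -0.66 and -0.86, but did not pass (adjusted p = 0.21, limma; 0.016 with the block). Med1, a subunit of the Mediator complex, had -1.13 and -1.68 on one probe and values within 0.14 of 0 on the other two. Glul, glutamine synthetase, had -0.86 and -1.03 on one probe, with 0.07 and -0.33 and then -0.16 and 0.46 on the others. Cadm3, an adhesion molecule, had -0.82 and -0.83 on one probe and 0.01 and 0.10 on the other. Sp100, a component of nuclear bodies, had -0.87 and -0.78 on 1 of 3 probes. Ly6g6e had -1.12 and -0.81 on one probe and -0.33 and 0.04 on the other. Znf41-ps, a zinc finger pseudogene, had 5 tested probes, of which a pair lay near -1 and the others lay between -0.20 and 0.69. With the block, Med1 (0.004), Glul (0.025), Cadm3 (0.015), Sp100 (0.014), Ly6g6e (0.019) and Znf41-ps (0.010) passed on the probe given first. Several were also low on array 2 of the other groups. On svb9 array 2 Glul had -0.47, Znf41-ps -0.55, Ly6g6e -0.53 and Med1 -0.49. On old wild type array 2 they had -0.87, -0.70, -0.70 and -0.85. On array 1 of either group they lay between -0.38 and 0.25. Gne lay between -0.25 and 0.21 and Cadm3 between -0.21 and 0.21 on all of these arrays.

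**Figure D2:**
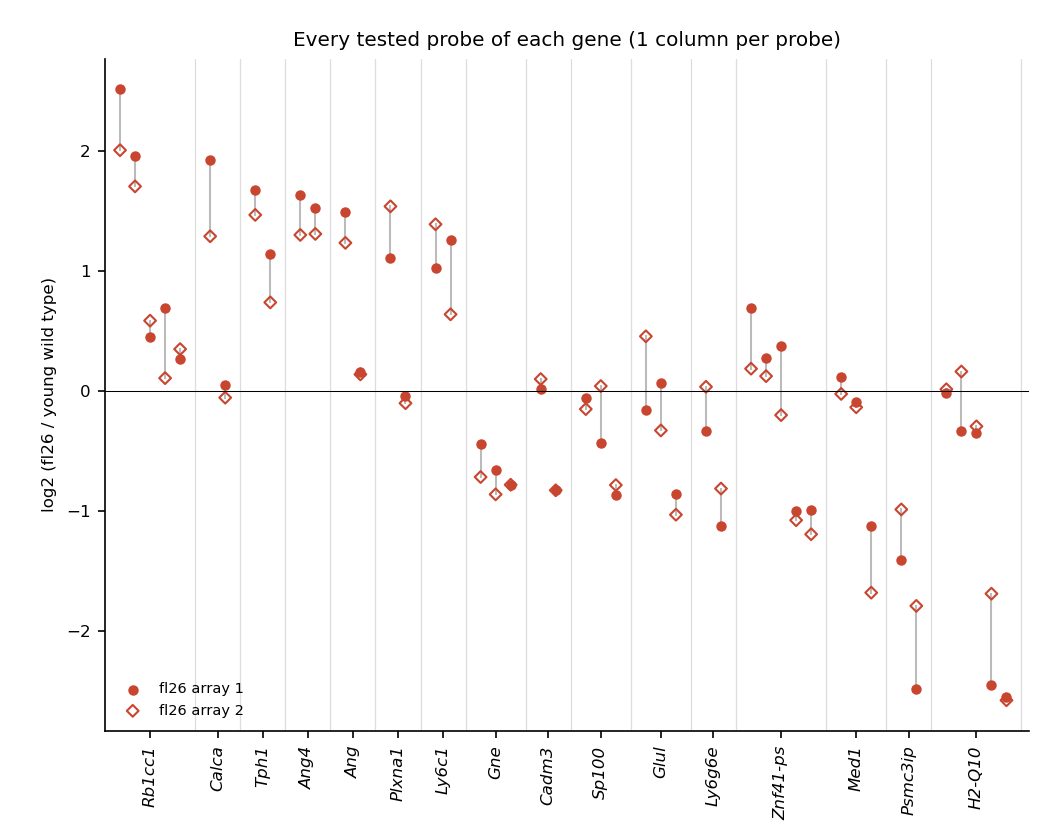
Log2 ratio of fl26 over young wild type for every tested probe of each named gene that has more than 1, with array 1 as a filled circle and array 2 as an open diamond joined by a line. Both probes of Tph1, Ang4, Ly6c1 and Psmc3ip and all 3 of Gne lie on one side of 0, whereas Rb1cc1, Calca, Med1 and H2-Q10 hold probes near 0 beside probes far from it.

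No difference between fl26 and the splice variant line passed. In the limma test of fl26 minus svb9, 0 of 27858 probes (0%) passed, with 607 (2.18%) at an unadjusted p of 0.05, and 4 passed with a variance trend, 10 with the replicate block and 2 with the run day as a term. The largest differences among the named genes were those of H2-Q10 (-2.34 ± 0.41), Kel (2.28 ± 0.32), Psmc3ip (-2.27 ± 0.24) and Rb1cc1 (2.14 ± 0.18, limma standard error, 2 arrays each; adjusted p = 0.22 for Rb1cc1 and 0.36 for Psmc3ip). With the block, Rb1cc1 (both high probes), Kel, Aqp8, Ang4, Tph1, Mgll, a lipase of monoacylglycerols, and Gabra4, a GABA receptor subunit, were called as higher in fl26 and Sh2d4a and Psmc3ip as lower. Against old wild type, 0 of 27624 probes passed (0%), with 2138 (7.74%) at an unadjusted p of 0.05. These comparisons share young wild type as the green sample, so their values are given side by side and not correlated.

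**Figure D3:**
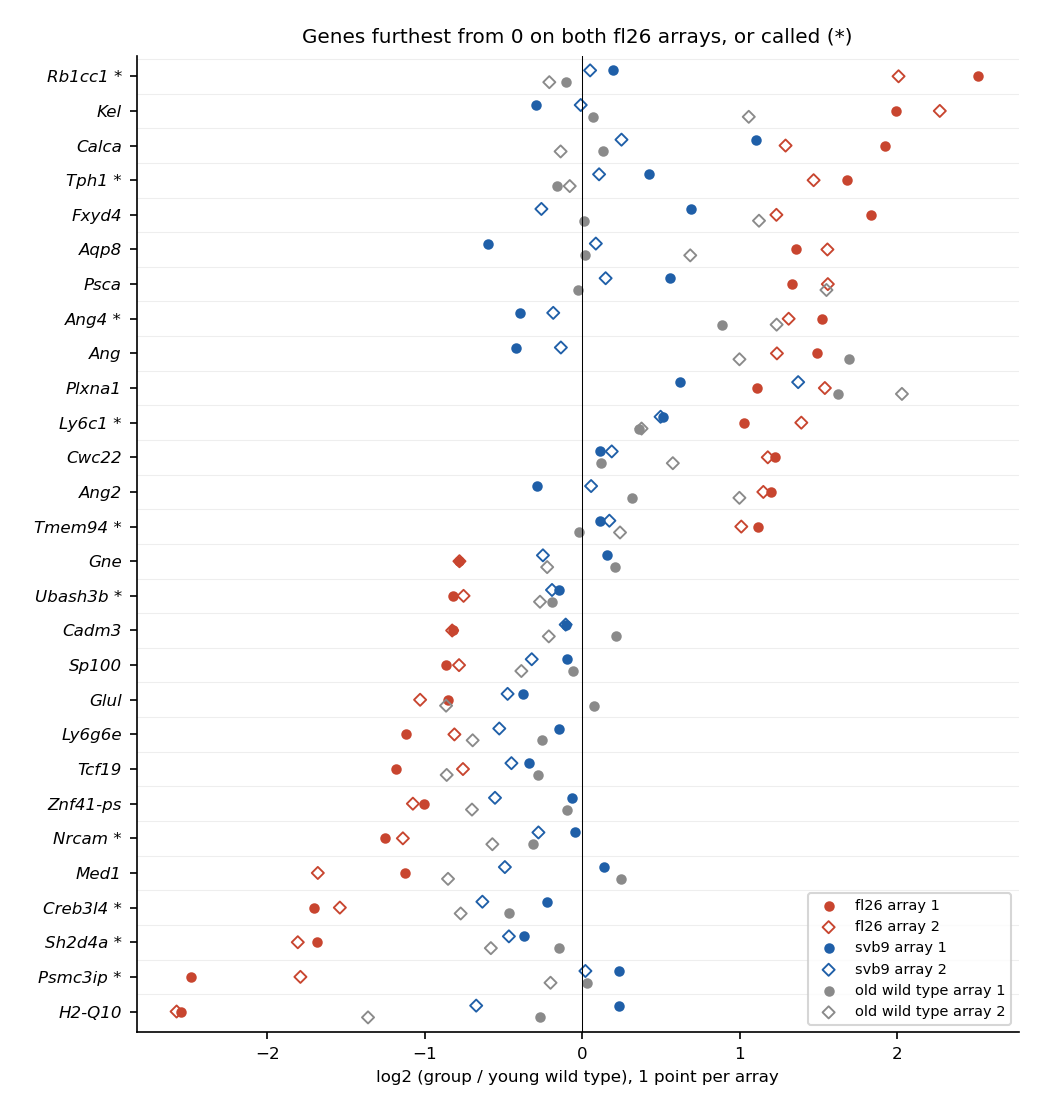
Log2 ratio over young wild type on each of the 6 arrays for the genes furthest from 0 on both fl26 arrays and for the genes that passed (asterisks), with fl26 in red, svb9 in blue and old wild type in grey. Rb1cc1, Tph1 and Psmc3ip lie apart in fl26 alone, the angiogenins are also high on old wild type arrays, and Plxna1 is high in all 3 groups.

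Gene lists for cell types and pathways were described by their counts and medians beside those of all genes, of which 27.9% were above 0 and 26.5% below 0 on both arrays. Over all genes, each read by its brightest probe alone, 3 of 14344 rose (0.0209%) and 5 fell (0.0349%). Of the 47 lists, 5 held 1 member called on its brightest probe (Rb1cc1, Tph1, Psmc3ip, Creb3l4 and Nrcam), and the others held none. Ang4, of the RNase A family list, and Ly6c1, of the endothelial list, passed on a dimmer probe and are not counted. In what follows, values of single members did not pass the test unless stated, and the blocked p is given only for members with a p of their own.

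Interferon response genes had the lowest median over both arrays of any list, apart from the partly saturated secretory products. Of 32 tested, 19 were below 0 on both arrays and 2 above, with medians of -0.35 on array 1 and -0.12 on array 2. The lowest was Rtp4, an interferon-induced chaperone of receptors, at -1.51 and -0.62 (adjusted p = 0.25, limma; 0.014 with the block), followed by Oasl2 (-1.05 and -0.64), Ifi44 (-1.33 and -0.27) and Ifit1, an antiviral RNA-binding protein (-1.13 and -0.36). Bst2, which tethers virus particles, had -0.82 and -0.41, and the transcription factors Stat2 and Irf7 had -0.46 and -0.44 and, with red above background on 1 array, -0.999 and -0.16. The chemokine gene Cxcl10 had -0.26 and -0.33. Relative to the median of all probes the list stayed below 0 on both arrays under each of the 4 scalings tried, with 17 to 19 members below it on both. On array 1 alone 27 members were below that median and on array 2 alone 21. With the replicate block 4 members fell and 0 rose, where 1.73% of all probes fell. With the run day as a term 0 rose and 0 fell. The list's median in svb9 was -0.12. Blocked counts of this size were also seen in other lists. As lower, the block called 4 of 21 luminal markers, 7 of 42 ribosomal protein genes and 3 of 11 ventral lobe secretory products. As higher, it called 6 of 34 fibroblast and matrix genes and 4 of 23 androgen response genes. The other way went 1 luminal marker, 1 secretory product and 1 androgen response gene. Markers of T and NK cells had a median of 0.08 on array 1 and -0.02 on array 2, with Cd3e at 0.08 and 0.04 and red well above background on both arrays for 5 of 17, and markers of B and plasma cells had 0.03 and 0.02. Their part in the result was not tested.

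Interferon genes are commonly switched on through a promoter element made of 2 GAAA blocks, so their promoters are shown for 4 members that were below 0 on both arrays. The motif GAAANNGAAA was searched on both strands in the 250 bases before each gene's start in RefSeq's GRCm38.p6 promoters. It was found for 936 of 27025 genes (3.46%) and for 11 of the 26 interferon genes that had an entry, which were 8 of 15 that were below 0 on both arrays and 3 of the other 11. A match is a description and shows no binding. The 4 sequences below, chosen as the lowest members with a match and red signal on both arrays, run 5′ to 3′ toward the gene, with the motif or its reverse complement in capitals. They are the stretches at chr19:34640745-34640853 (plus strand, Ifit1), chr8:71537547-71537642 (minus, Bst2), chr10:128270248-128270325 (plus, Stat2) and chr5:120907526-120907585 (minus, Oas1a, which had log2 ratios of -0.81 and -0.00). Ifit1, Bst2 and Oas1a each hold 2 matches, which overlap in Bst2 and Oas1a, and Stat2 holds 1.
Ifit1: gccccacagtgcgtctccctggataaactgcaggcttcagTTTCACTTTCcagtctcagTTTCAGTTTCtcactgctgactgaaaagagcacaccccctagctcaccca
Bst2: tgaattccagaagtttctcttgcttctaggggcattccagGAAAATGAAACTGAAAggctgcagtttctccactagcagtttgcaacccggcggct
Stat2: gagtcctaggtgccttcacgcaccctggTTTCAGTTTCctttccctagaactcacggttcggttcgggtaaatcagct
Oas1a: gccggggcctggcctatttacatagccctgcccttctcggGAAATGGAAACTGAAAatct

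Progenitor-like epithelial markers lay mostly above 0. Of 19 tested, 12 were above 0 on both arrays and 2 below, with medians of 0.26 and 0.17. Clu, which encodes the secreted chaperone clusterin, had 1.52 and 2.62 (adjusted p = 0.21, limma; 0.029 with the block), with net intensities of 65131 in red, which was saturated, and 7637 in green on array 1, and 48428 and 9557 on array 2. It was the highest of the list, and its value on array 1 is limited by saturation. Psca and Ly6a, described above, came next. The keratin gene Krt7 had 0.41 and 0.12. Krt23 was the lowest, at -0.54 and -0.42. Relative to all probes, 10 or 11 members were above the median on both arrays in each scaling. With the replicate block 3 members rose and 1 fell, and with the run day as a term 2 rose and 0 fell. The shares of all probes and the blocked counts of other lists are given above. The svb9 median was 0.10.

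Basal epithelial markers were above 0 on array 1 and near it on array 2. The medians were 0.19 and -0.01, and 9 of 23 were above 0 on both arrays and 1 below. Col17a1, a collagen of the hemidesmosomes that anchor basal cells, had 0.97 and 0.92 (adjusted p = 0.10, limma; 0.012 with the block). Trp63, the transcription factor that defines basal cells, had 0.78 and 0.86 (adjusted p = 0.059, 0.009 with the block). These 2 agreed between the arrays, as did Krt5 (0.29 and 0.26). Egfr (0.56 and -0.74), Perp (0.32 and -0.53) and Krt14 (0.43 and 0.04) did not. In svb9 Trp63 lay at 0.06 and 0.10.

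Luminal epithelial markers leaned the other way. Of 21 tested, 3 were above 0 on both arrays and 9 below, with medians of -0.12 and -0.10. With median centring, which leaves trends with intensity in place, the list's median relative to all probes was 0.35 on array 1 and -0.20 on array 2, so the direction on array 1 turned. Spdef, a transcription factor of secretory epithelium, was the lowest, at -0.63 and -0.65 (adjusted p = 0.17, limma; 0.022 with the block), and the epithelial cadherin Cdh1 had -0.29 and -0.79. Krt8 had -0.16 and 0.08 and Krt18 -0.33 (red saturated) and -0.10. Tmprss2, an androgen-regulated protease gene, had 0.36 and 0.41. Azgp1, a secreted zinc-binding glycoprotein under androgen control, had -0.78 and -0.71 (adjusted p = 0.25, 0.032 with the block), and Acsl3, an androgen-regulated acyl-CoA ligase, had 0.67 and 0.65 (adjusted p = 0.10, 0.015 with the block). Androgen response genes as a list had medians of 0.16 and 0.14, with 7 of 23 above 0 on both arrays and 4 below.

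Stromal and immune markers differed between the arrays, and array 1 carried most of their shift. Fibroblast and matrix genes had a median of 0.44 on array 1 and -0.04 on array 2. 33 of 34 were above the median of all probes on array 1 and 14 on array 2, and those above 0 on both numbered 14, with 0 below. Col6a3, a microfibril collagen, had 0.79 and 0.97 and had the highest mean of those with a value on both arrays. Col1a1, by contrast, had 0.74 and -0.18. Macrophage and dendritic markers had medians of 0.21 and 0.05, with 15 of 27 above 0 on both arrays and 1 below. The lysozyme genes Lyz1 (1.06 and 0.77) and Lyz2 (1.11 and 0.47), the lipid carrier gene Apoe (0.47 and 0.83) and Trem2 (0.69 and 0.46) were high on both, whereas the defining markers Adgre1 (0.67 and -0.13), Cd68 (0.10 and -0.14) and Itgam (0.02 and -0.06) were not. Lyz1 and Lyz2 are near-identical copies. Endothelial markers had medians of 0.24 and -0.02, and smooth muscle markers 0.12 and -0.08.

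Stress response genes lay above 0 in part. Of 21 heat shock genes, 13 were above 0 on both arrays and 2 below, with medians of 0.14 and 0.19. Hspa1a, an inducible Hsp70, had 0.60 and 1.46 (adjusted p = 0.23, limma; 0.015 with the block), Hspa8 had 0.34 and 1.18 and the co-chaperone Stip1 0.32 and 0.89. Array 2 was the higher for each of these 3. The svb9 median of the list was 0.13. With the replicate block 4 members rose and 0 fell, where 1.86% of all probes rose, and with the run day as a term 0 rose. Blocked counts of this size in other lists are given with the interferon genes. Immediate early genes, which respond within minutes to stimulation and to handling of tissue, had medians of 0.22 and -0.06, with Egr1 at 0.80 and 0.43, Junb at 0.52 and 0.70 and Atf3 at 0.07 and 1.54. Their part in the result was not tested.

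**Figure D4:**
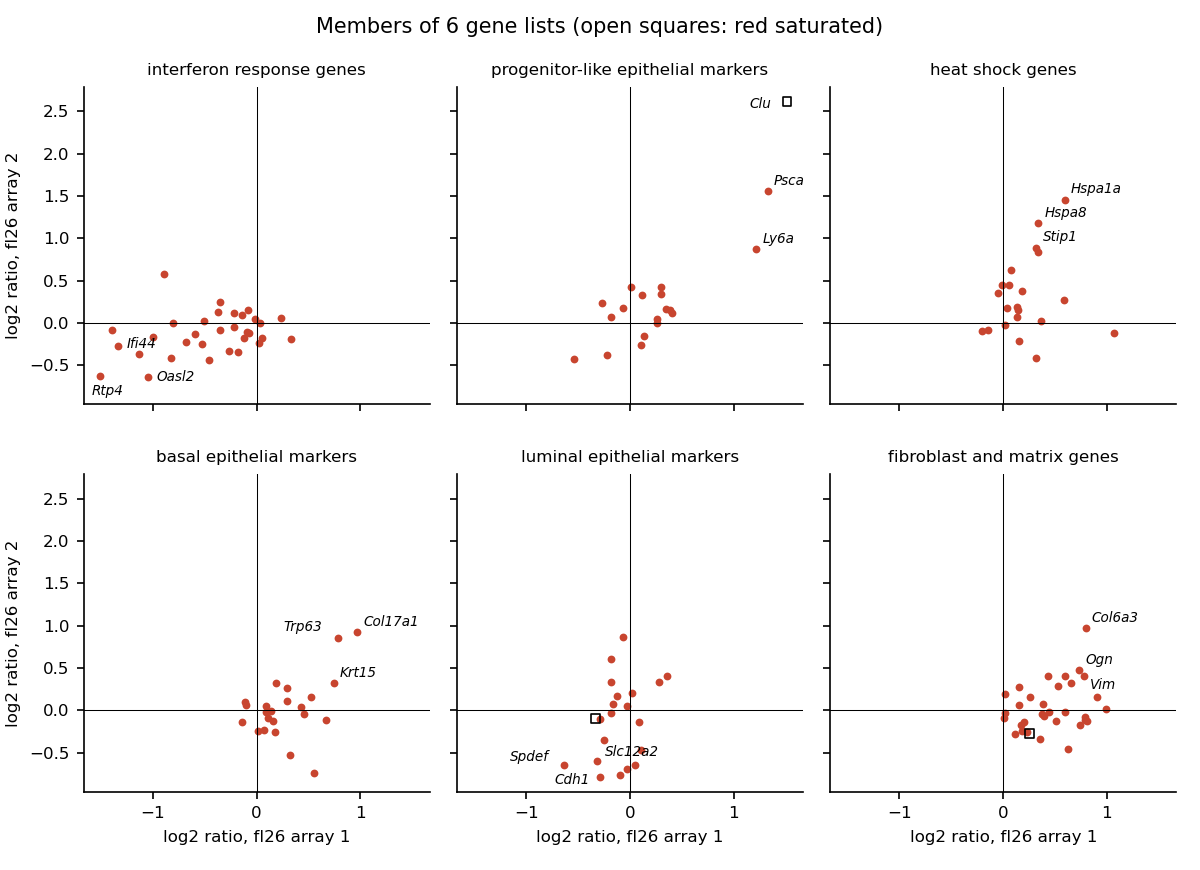
Log2 ratio of fl26 over young wild type on array 1 (horizontal) and array 2 (vertical) for the members of 6 lists, 1 point per gene, with open squares where red was saturated. Interferon genes reach -1.51 on array 1, Clu, Psca and Ly6a lead the progenitor-like list, and fibroblast genes spread along array 1 and little along array 2.

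Genes close to the transgene's own chemistry were near 0. Lipoxygenase and leukotriene enzymes had medians of -0.01 on both arrays, with 4 of 21 above 0 on both and 6 below. Red was well above background on both arrays for 11 of the 21. Pla2g4a, the phospholipase that releases arachidonic acid, had -0.49 and -0.41 (adjusted p = 0.21, limma; 0.033 with the block), and Gpx4, which reduces lipid peroxides, had -0.31 and -0.40. Alox12e had 1.12 and -0.01, with red well above background on 1 array. Prostanoid enzymes and receptors had medians of 0.09 and -0.09, and PPAR receptors and fatty acid oxidation genes 0.10 and -0.02. Angptl4, a PPAR target that inhibits lipoprotein lipase, was the highest of these, at 0.93 and 0.54, and Pparg itself had 0.10 and 0.45. On svb9 arrays Angptl4 lay at 1.06 and 0.26, so it did not set fl26 apart.

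Genes of growth and of growth arrest showed no common direction. Proliferation genes had medians of -0.00 and 0.09, with 12 of 37 above 0 on both arrays and 6 below. Pcna, the sliding clamp of DNA replication, had 0.35 and 0.72, and Mki67 -0.00 and 0.50 on its brighter probe. Cell cycle inhibitors and senescence genes had medians of 0.02 and -0.06, with 8 of 30 on each side. Cdkn1a, the p21 inhibitor, had -0.23 and -0.25, with red well above background on 1 array, and Cdkn2c had 0.49 and 0.67. In the growth factor list Igfbp2, a binding protein of insulin-like growth factors, had -0.36 and -0.71, and Fgfbp1 had 0.76 and 0.41. Matrix proteases and inhibitors had medians of 0.17 and 0.01, led by Timp3 at 0.59 and 0.83. Chemokines and cytokines had 0.09 and 0.05, led by Il33, an alarm signal of epithelium, at 0.86 and 0.64.

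Housekeeping lists had medians close to 0, but their members leaned differently on the 2 arrays. Of 42 genes of the mitochondrial respiratory chain, 16 were below 0 on both arrays and 7 above, with medians of -0.03 and -0.15. The lowest, Cox7a2, had -0.17 and -1.25. With median centring their medians relative to all probes were 0.53 and -0.36, so the direction on array 1 turned. Cytosolic ribosomal protein genes had medians of -0.12 and 0.09, and the lowest of them, Rps18 at -1.59 and -0.39, was saturated in red on array 1. Of 42, 14 were below 0 on both arrays and 2 above. Relative to the median of all probes, 36 were below it on array 1 and 28 above it on array 2. With median centring 31 were above it on array 1 and 16 on array 2. Across all 47 lists, the medians over both arrays ran from -0.19 for secretory products of the ventral lobe and interferon genes to 0.30 for the RNase A family.

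**Figure D5:**
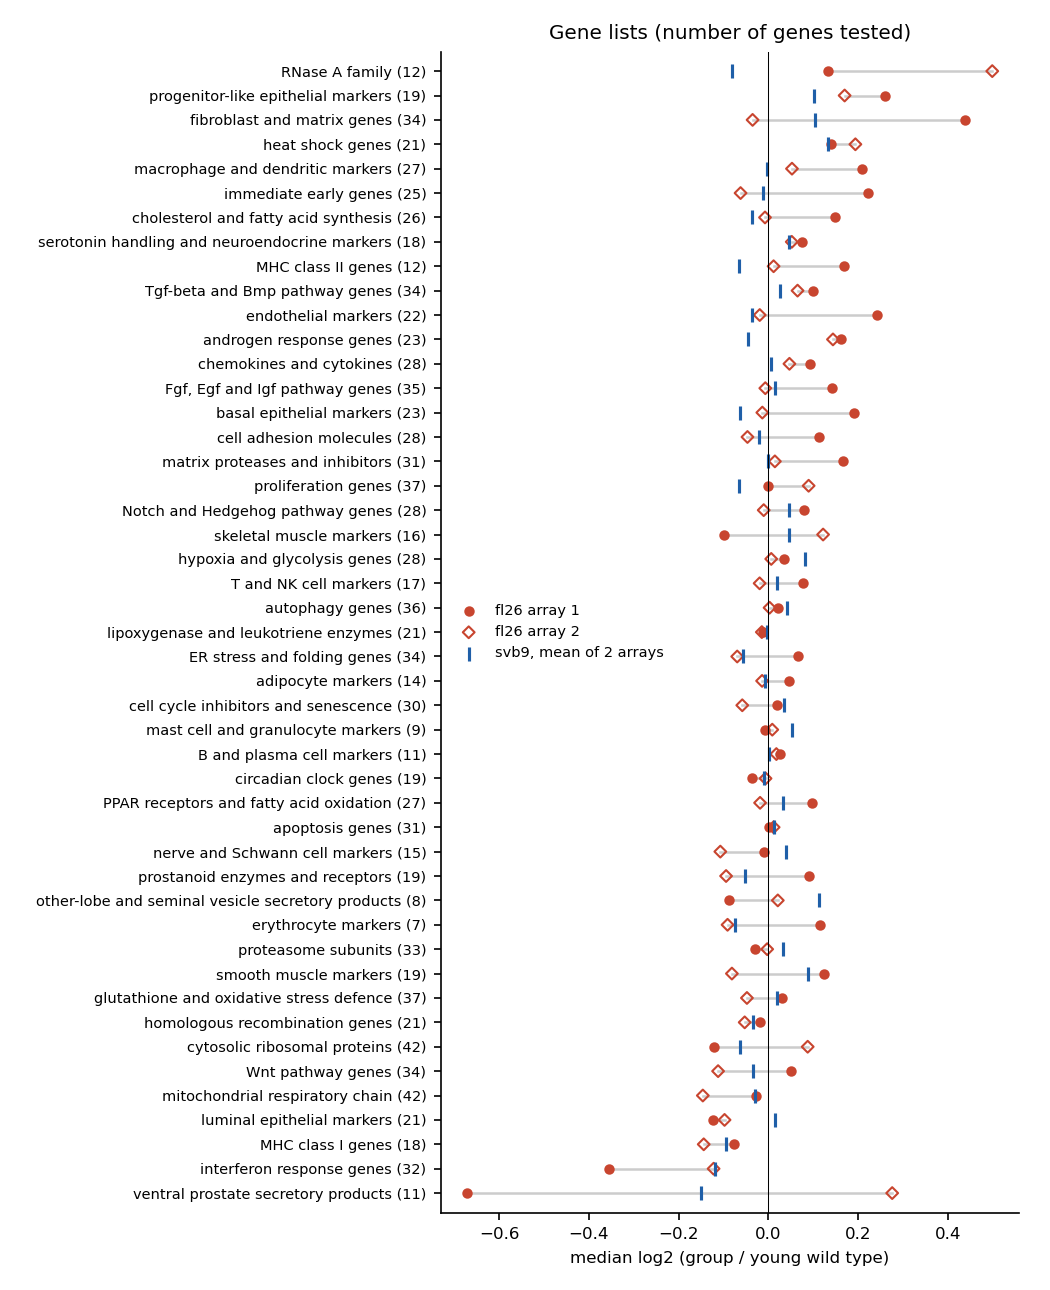
Median log2 ratio of each of 47 gene lists on fl26 array 1 (filled circles) and array 2 (open diamonds), with the svb9 mean as a blue tick and the number of tested genes in brackets. The RNase A family and progenitor-like markers lie above 0 and interferon genes below 0 on both fl26 arrays, whereas fibroblast, endothelial and basal lists lie above 0 on array 1 and at or below it on array 2.

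Genes with signal in 1 colour alone added little. On both arrays 772 tested probes were well above background in green and not in red, and 0 the other way round. A bound on the fold, computed from the lowest red signal counted as above background, exceeded 1 for 122 of them, and its 3 largest values were at least 1.40-fold lower for Uba1y, at least 1.34-fold for Hoxb8 and at least 1.33-fold for Il3. None of these 3 passed the test.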

How the data were processed

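RNA was hybridized to Agilent whole mouse genome arrays and read with Agilent Feature Extraction, version A.7.5.1 by their headers. The authors deposited mean spot intensity and median background intensity per channel, and log10 ratios that the software had background-subtracted, detrended and dye-normalized (linear and LOWESS), per the file headers. A series table that was also deposited gives these log10 ratios rounded (largest difference 0.005, column medians 0). In R 4.3.3 with limma 3.58.1, intensities were background-corrected (normexp, offset 50) and loess-normalized, and replicate spots were averaged. Control spots (2256 of 43790) and outlier spots were left out. A probe was tested if, in at least 1 group, both arrays had it well above background in one and the same colour. All 6 arrays entered a linear model of 3 means, 1 per group. The fl26 mean was tested against 0 and against svb9 and old wild type, 2-sided, with Benjamini-Hochberg adjustment and a threshold of 0.05. With 2 arrays per group, the number of arrays limits the precision. Whether arrays shared a wild type pool is not given in the sources used here. If they did, the test against 0 leaves out how young wild type pools vary. The model was checked on simulated data.

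Genes named were those with a called probe, the 12 highest and 12 lowest by the smaller value of the 2 arrays (unsaturated, above background), the largest 1-colour bounds, the extreme members of the lists described, and Pbsn, Trp63, Krt5, Krt14, Krt8, Krt18, Alox15, Alox15b, Mki67 and Cdkn1a. Other genes were picked after their values were seen. The comparison, members and lists were chosen with earlier results of these data known. RIKEN and accession symbols were counted and not named. Lists used the brightest probe of each gene. Symbols come from RefSeq (GRCm38.p6).

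Deviations of same-numbered arrays from their group means correlated at 0.59 (fl26 and svb9), 0.33 (fl26 and old wild type) and 0.17 (svb9 and old wild type), so fits with the replicate number as a block are given. The labels do not describe a pairing. The day of the Feature Extraction run was used as a term, with fl26 array 1 on the first day beside svb9 array 1 and fl26 array 2 on the second beside old array 1.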

Additional observations from a re-analysis of the deposited data

Results flagged for a closer look

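For several genes both fl26 arrays lay on one side of 0 and both svb9 arrays on the other, which singled them out for a closer look. The difference between the lines was tested with limma and passed for none of them. The differences of fl26 minus svb9 on the log2 scale were 2.28 for Kel, 1.71 and 1.82 for the 2 probes of Ang4, 1.64 for Ang, 0.38 for the Rb1cc1 probe at 0.26 and 0.35 and 0.36 for Krt14. They were -2.27 for Psmc3ip, -0.98 for Igfbp2, -0.67 for Inhbb, -0.20 for Ncam1 and -0.17 for Cpa3. Adjusted p was 0.49 for Kel, 0.30 and 0.36 for Ang4, 0.60 for Ang and 0.36 for Psmc3ip.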

How the results depend on the processing

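The 11 called probes of named genes kept their sign under every alternative that gave a value, while the count of calls depended on the fit. Many alternatives could not change that sign. The trends, the block, the filters and leaving out an svb9 or old wild type array leave the fl26 mean of these probes as it was. Leaving out an fl26 array could not turn it either, since these probes had the same sign on both. For fl26 against young wild type, 14 probes passed, against 0 with median centring, 2 without background correction, 6 with the Feature Extraction log ratios, and 0 with only the fl26 arrays or only the fl26 and svb9 arrays. It was 63 with a variance trend, 61 with a robust trend, 121 with the run day as a term and 999 with the replicate block. The last 2 fits leave few degrees of freedom per probe. Leaving out 1 array gave 0 to 1. For fl26 minus svb9, 0 passed, against 4 with either trend, 10 with the replicate block and 2 with the run day. For fl26 minus old wild type, 0 passed, against 3 with a strict filter (both colours above background on both fl26 arrays), 2 with either trend, 25 with the replicate block and 5 with the run day. The 35 probes at least 2-fold on both arrays (20 higher, 15 lower) became 125 (43 higher, 82 lower) with the Feature Extraction log ratios and 45 (39 higher, 6 lower) with median centring. The cause was not tested. Over their alternatives, the adjusted p of the stronger Rb1cc1 probe ran from 0.00088 to 0.9998, with 12 of 20 passing, and that of the other called probes reached 0.9998 too, with 7 to 11 passing. Of the values for single named probes under an alternative, 2363 kept their direction and side of the threshold, 129 newly passed, 116 no longer did, and 35 that had not passed changed sign. Median centring on all spots left the median of the tested probes on fl26 array 1 at 0.35. It left 32 of 47 list medians with the same sign, and leaving out fl26 array 1 or 2 left 28 and 36. Red signal on array 2 was weaker, which limits what could be seen in genes expressed at low levels. Counts of list members by array and by scaling were added after the data were seen. Leaving out an svb9 or old wild type array cannot move a list median.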
